A study of Mus musculus with 10 samples.

Results

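Cells answer faulty protein folding, amino acid shortage and other strains through linked signalling arms, and the 36 genes described here encode the sensors, relays and targets of these arms: the integrated stress response and the unfolded protein response. The list was fixed by name, and each symbol was matched to its mouse Ensembl identifier among 22024 identifiers in the count table. All 36 were found, and all 36 were among the 15191 genes left after genes with few reads were removed. The libraries, 1 per mouse, hold polyA RNA of lumbar spinal cord from 10 females, all 3 months old. Animals 1, 2, 3, 7 and 9 form the M337V group (n = 5). Their transgene is human TARDBP with the M337V mutation, which is linked to amyotrophic lateral sclerosis, and it sits at Rosa26 within its own human genomic region, a bacterial artificial chromosome. Animals 8 and 10 form the WT group (n = 2), with the unmutated human gene in the same place, and animals 4, 5 and 6 are labelled nontransgenic (NTg, n = 3). Both lines were made from targeted embryonic stem cells and backcrossed to C57BL/6J for at least 3 generations, and controls are described as littermates of matched age. The transgene came in addition to the mouse's own Tardbp, and the zygosity of these animals is not given in the labels. The product of TARDBP, TDP-43, binds RNA and is found in stress granules, and the study's title names altered stress granule dynamics in these mice.

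In the integrated stress response, any of several kinases phosphorylates the initiation factor eIF2, which slows translation of most mRNAs while that of Atf4 goes on. ATF4 and its partners then raise genes of amino acid uptake and synthesis, and a phosphatase targeted by PPP1R15 proteins resets eIF2. In the unfolded protein response, the kinase PERK shares this route, IRE1 splices Xbp1 mRNA, and ATF6 is cut and moves to the nucleus. The last pair of arms raises chaperones and degradation factors of the endoplasmic reticulum (ER). Splicing of Xbp1, phosphorylation of eIF2 and cleavage of ATF6 are not seen in gene counts, so the values below are mRNA levels only.

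Promoter sequence shows which members carry the elements of each arm. Windows from 250 bases before to 50 after a transcription start (RefSeq, GRCm38.p6) were at hand for 32 of the 36 members, 35 windows in all. The ER stress element, CCAAT followed after 9 bases by CCACG, is bound by NF-Y at its first part and by ATF6 at its second. It was found on either strand in the windows of 6 members, all of them ER folding genes: Hspa5, Hsp90b1, Calr, Canx, Pdia6 and Dnajc3. That was 17.1% of the members' windows, against 0.119% of all 32851 windows in the table. The list holds known targets of these responses, so this contrast, like that of the next motif, describes the members and tests nothing. The elements lie at chr2:34772025-34772043 (plus strand) for Hspa5, chr10:86705638-86705656 (minus) and chr10:86705533-86705551 (plus) for Hsp90b1, chr8:84847075-84847093 (plus) for Calr, chr11:50325800-50325818 (minus) for Canx, chr12:17266491-17266509 (plus) for Pdia6 and chr14:118937827-118937845 (plus) for Dnajc3. A member without a match may still be reached by ATF6, and the elements are shown because ATF6 is known to bind them. Each is read 5′ to 3′ along the element with 6 bases on either side, and capitals mark CCAAT and CCACG.
Hspa5: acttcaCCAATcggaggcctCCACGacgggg
Hsp90b1, distal: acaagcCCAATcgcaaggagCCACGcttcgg
Hsp90b1, proximal: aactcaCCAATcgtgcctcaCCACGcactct
Calr: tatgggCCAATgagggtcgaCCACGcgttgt
Canx: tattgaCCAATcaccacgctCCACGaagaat
Pdia6: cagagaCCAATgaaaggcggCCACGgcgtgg
Dnajc3: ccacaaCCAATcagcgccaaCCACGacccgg

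A second motif, TGATGNAAN, is the form of the amino acid response element bound by ATF4 with C/EBP partners. It was found in the windows of 5 members, Asns, Chac1, Herpud1, Slc7a11 and Trib3, which was 14.3% of the members' windows and 3.95% of all windows. The matches lie at chr6:7693224-7693232 (minus strand) for Asns, chr2:119351048-119351056 (minus) for Chac1, chr8:94386316-94386324 (minus) for Herpud1, chr3:50443671-50443679 (minus) and chr3:50443653-50443661 (plus) for Slc7a11, and chr2:152344039-152344047 (plus) for Trib3. They are printed as above to set beside the levels of these ATF4 targets, with the motif in capitals.
Asns: gccacaTGATGAAACttcccg
Chac1: caggagTGATGCAACggcagg
Herpud1: gcgggcTGATGCAACccgccg
Slc7a11, distal: tgtggcTGATGCAAAcctgga
Slc7a11, proximal: gcatgaTGATGCAAAttctcc
Trib3: cccggcTGATGTAAAcctgag

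The element TGACGTGG, known as a site of XBP1 and ATF6, matched 0 of the members' 35 windows and 0.676% of all windows. CCACG alone, which the longer ER stress element includes, was in windows of 24 members, 71.4% of the members' windows, and in 32.8% of all windows. Psat1 and Ddit4, described below as the members with a window whose level passed the test, had CCACG but none of the 3 longer motifs. Their windows are printed whole because these genes carry the main differences, with CCACG or its complement in capitals; Psat1 had a second window downstream. A match or its absence describes these letters alone.
Ddit4, chr10:59951721-59952020, minus strand: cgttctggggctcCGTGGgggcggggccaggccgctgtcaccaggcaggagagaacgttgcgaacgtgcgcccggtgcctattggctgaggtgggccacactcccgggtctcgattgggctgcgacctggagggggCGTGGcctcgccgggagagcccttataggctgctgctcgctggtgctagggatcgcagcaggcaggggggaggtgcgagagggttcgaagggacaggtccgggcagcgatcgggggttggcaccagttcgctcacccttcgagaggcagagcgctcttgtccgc
Psat1, chr19:15925010-15925309, minus strand: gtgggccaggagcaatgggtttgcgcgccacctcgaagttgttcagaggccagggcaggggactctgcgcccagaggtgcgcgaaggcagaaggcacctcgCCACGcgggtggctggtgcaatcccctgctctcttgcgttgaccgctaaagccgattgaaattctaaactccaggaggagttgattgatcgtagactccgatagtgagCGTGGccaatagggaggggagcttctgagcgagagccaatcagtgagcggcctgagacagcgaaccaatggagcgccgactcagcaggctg

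Libraries held 18724888 to 21041474 counts. Human TARDBP had 2192 to 2723 counts in the libraries labelled M337V or WT, 1 in NTg 5 and 4 in NTg 6. The library labelled NTg 4 had 2415, which goes against that label. It stays in the NTg group, and results that rest on it are also given without it. Every marker of the neuron, motor neuron, oligodendrocyte, astrocyte and microglia lists was detected in every library. Several lists differed between groups. Summed oligodendrocyte markers were 29468 to 36465 CPM (counts scaled by library size) in M337V, 32002 to 35738 in WT and 21805 to 26029 in NTg. Summed neutrophil markers were 44.2 to 118 CPM in M337V, 24.3 to 82.3 in WT and 132 to 449 in NTg, with the highest value in the library labelled NTg 4. The 12 Hox genes of paralog groups 10 to 13, active in the caudal cord, summed to 789 to 3211 counts in M337V, to 240 in WT 8 and 4523 in WT 10, and to 3530 to 4584 in NTg. Nothing in the labels says that the libraries of a group are more than separate animals, and p-values measure the spread between animals.

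The genes covered a wide range of levels. Per kilobase of merged exons, and as a mean over the 10 libraries, the ER lectin chaperone calnexin (Canx) stood highest at 165 CPM per kb. It was followed by calreticulin (Calr, 103), the ER chaperone GRP94 (Hsp90b1, 102), the serine synthesis enzyme gene Psat1 (69.7), the disulfide isomerase Pdia3 (67.8) and the ER chaperone BiP (Hspa5, 63.3). Atf4 stood at 43.2 CPM per kb and Asns at 36.7. Genes known to be induced under acute stress stood lower, with Ddit3, which encodes CHOP, at 7.12, Chac1 at 4.12, Ppp1r15a at 3.36 and Trib3 at 0.21 CPM per kb. Trib3 had 4 to 15 counts per library, and every other member had at least 50 counts in every library. Variation was modest. The biological coefficient of variation that edgeR fitted within groups had a median of 8.14% over the members, against 8.57% over all genes tested, and ran from 5.57% for Canx to 25.8% for Trib3. In 27 of 36 members the highest library was less than 1.5-fold above the lowest.

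**Figure D1:**
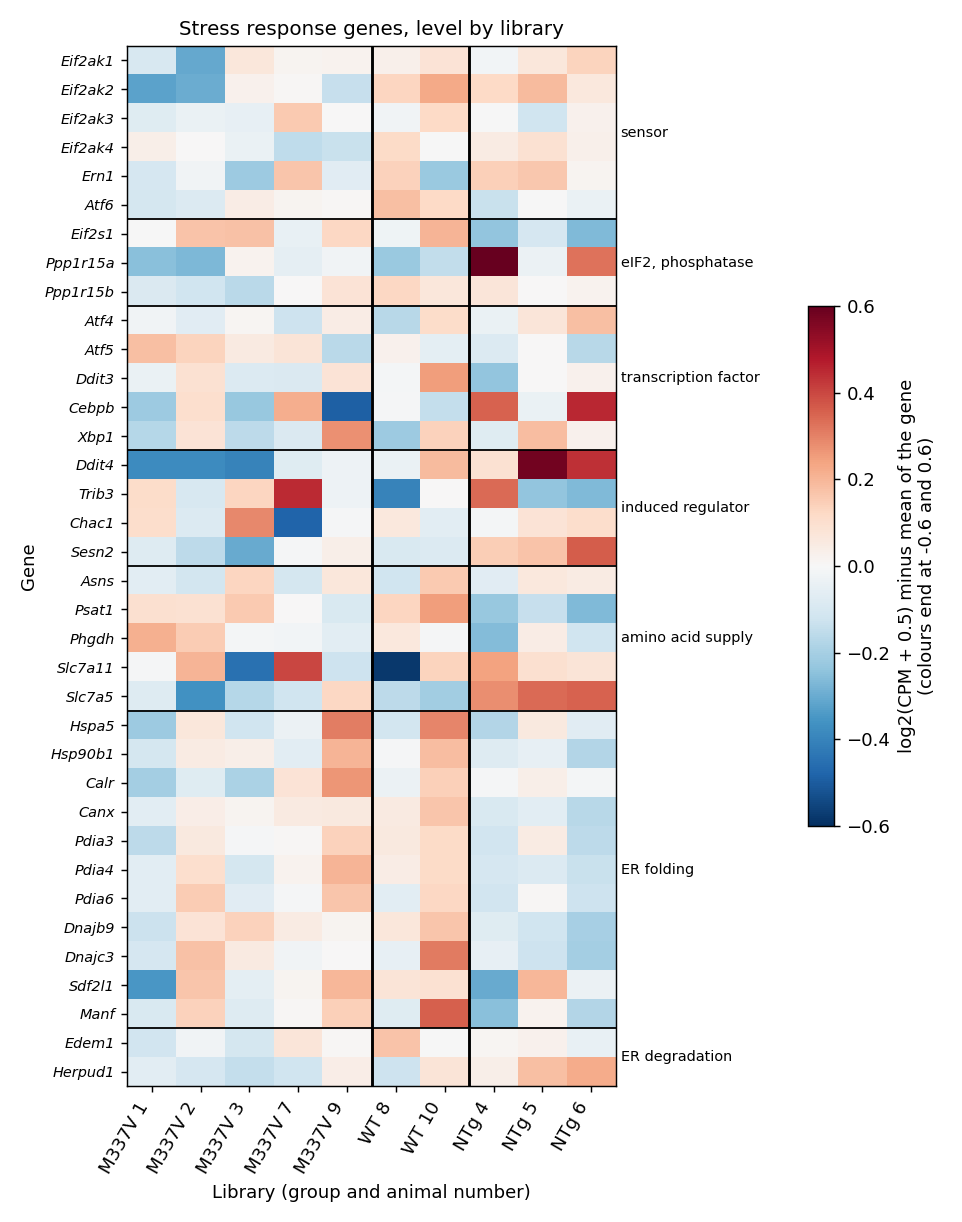
Level of the 36 genes (rows, grouped by role) in the 10 libraries (columns), on a log2 scale (CPM + 0.5) centred on each gene's mean; red is above and blue below that mean, and vertical lines part M337V, WT and NTg. Slc7a5 was blue in 4 of 5 M337V and in both WT libraries and red in the 3 NTg libraries, and the ER folding genes were reddest in M337V 9 and WT 10.

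The comparison of M337V with NTg asked what the mutant human gene does to these mRNAs. In M337V cord Ddit4 and Slc7a5 fell and Psat1 rose, and the other 33 members did not pass the test (edgeR's quasi-likelihood test over all genes, Benjamini-Hochberg adjusted p below 0.05). The 3 calls were 8.33% of the members, beside 4.29% of all genes tested, 2.67% higher and 1.61% lower. The members' median log2 difference was 0.01, with 18 positive and 18 negative, and that of all genes tested was -0.01. At an unadjusted p below 0.05, 4 members were higher and 7 lower (30.6%), beside 24.5% of all genes tested. The list's median and its share at an unadjusted p lay close to those of all genes tested. In bulk tissue fewer cells of a type and less RNA per cell cannot be told apart.

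Slc7a5 encodes LAT1, the carrier of leucine and other large neutral amino acids and a target of ATF4. It stood at 63.7, 52.2, 59.6, 61.8 and 73.4 CPM in M337V 1, 2, 3, 7 and 9, at 60.2 and 58.1 CPM in WT 8 and 10, and at 85.3 and 86.0 CPM in NTg 5 and 6, with 81.6 CPM in the library labelled NTg 4. Every M337V and WT library lay below every NTg library. The mean of the 5 M337V libraries was 62.1 ± 7.64 CPM (SD) and that of the 3 NTg libraries 84.3 ± 2.32 CPM (SD). The log2 difference was -0.44 with an SE of 0.08 (adjusted p = 0.0245). Without the library labelled NTg 4 the difference was -0.46 (adjusted p = 0.0524).

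The partner of LAT1 at the cell surface is the heavy chain 4F2hc, encoded by Slc3a2, which belongs to the wider pathway list. Slc3a2 stood at 99.6 to 109 CPM in M337V (median 106), at 97.6 and 106 CPM in WT and at 117 to 128 CPM in NTg. Its M337V and NTg ranges did not overlap either, and it fell by 0.21 on the log2 scale (SE 0.05, adjusted p = 0.0380). Both chains of this transporter passed the test in the same direction, and neither passed without the library labelled NTg 4. Calls over all genes tested then numbered 197, against 651 in the reported fit.

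Ddit4 encodes REDD1, an inhibitor of the growth kinase mTORC1 that is induced by ATF4 and by other signals such as glucocorticoids. It stood at 37.5, 37.4 and 36.9 CPM in M337V 1, 2 and 3 and at 46.5 and 47.8 CPM in M337V 7 and 9. WT 8 and 10 had 47.5 and 55.8 CPM, NTg 5 and 6 had 73.3 and 66.4 CPM, and the library labelled NTg 4 had 52.1 CPM. All 5 M337V libraries lay below all 3 NTg libraries, and M337V 1 to 3 lay lowest. The mean was 41.2 ± 5.42 CPM over the 5 M337V libraries and 63.9 ± 10.8 CPM over the 3 NTg libraries (SD). The log2 difference was -0.63 with an SE of 0.12 (adjusted p = 0.0240). Without the library labelled NTg 4 it was -0.75 (adjusted p = 0.0302), and without M337V 1, 2 and 3 it was -0.43 (adjusted p = 0.272). In that last fit 3 genes were called over all genes tested, against 651 in the reported fit.

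Psat1 encodes phosphoserine aminotransferase, an enzyme of serine synthesis, and so falls among the genes of amino acid synthesis that ATF4 raises. It had 314, 314, 329, 295 and 277 CPM in M337V 1, 2, 3, 7 and 9, 322 and 351 CPM in WT 8 and 10, and 267 and 245 CPM in NTg 5 and 6, with 252 CPM in the library labelled NTg 4. Every library labelled M337V or WT lay above every library labelled NTg. The mean was 306 ± 20.3 CPM over the M337V and 255 ± 11.5 CPM over the NTg libraries (SD). The log2 difference was 0.26 with an SE of 0.06 (adjusted p = 0.0397). Means below are given with the SD and log2 differences with the SE. Without the library labelled NTg 4 it was 0.26 (adjusted p = 0.0955). Phgdh, which encodes the enzyme at the head of the same route, averaged 82.4 ± 7.01 CPM in M337V and 73.5 ± 7.86 CPM in NTg and did not pass (log2 0.17 ± 0.08, adjusted p = 0.232).

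None of the 3 calls held without NTg 6, where adjusted p was 0.149 for Ddit4, 0.149 for Slc7a5 and 0.192 for Psat1, while the log2 differences were -0.60, -0.43 and 0.24. Over all genes tested, 2 calls were left without that library. The number of members called was also 0 without M337V 2 and without M337V 3, and 2 without M337V 1. Calls over all genes tested then numbered 53, 161 and 465. Without NTg 5 none of the 3 passed, and the only member called was Ppp1r15a, beside 280 calls over all genes tested. Removal of each library's trend over GC content and transcript length ended the calls of Ddit4 (-0.51, adjusted p = 0.0572) and Slc7a5 (-0.29, adjusted p = 0.0762). It left that of Psat1 (0.28, adjusted p = 0.0284). Summed microglial markers were 202 to 218 CPM in M337V, 206 to 216 CPM in WT and 162 to 189 CPM in NTg, and 1 of the 4, P2ry12, rose in both M337V and WT (log2 0.52 and 0.55). The part of these, of the oligodendrocyte, neutrophil and Hox levels given above and of the muscle markers given below in the differences was not tested.

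**Figure D2:**
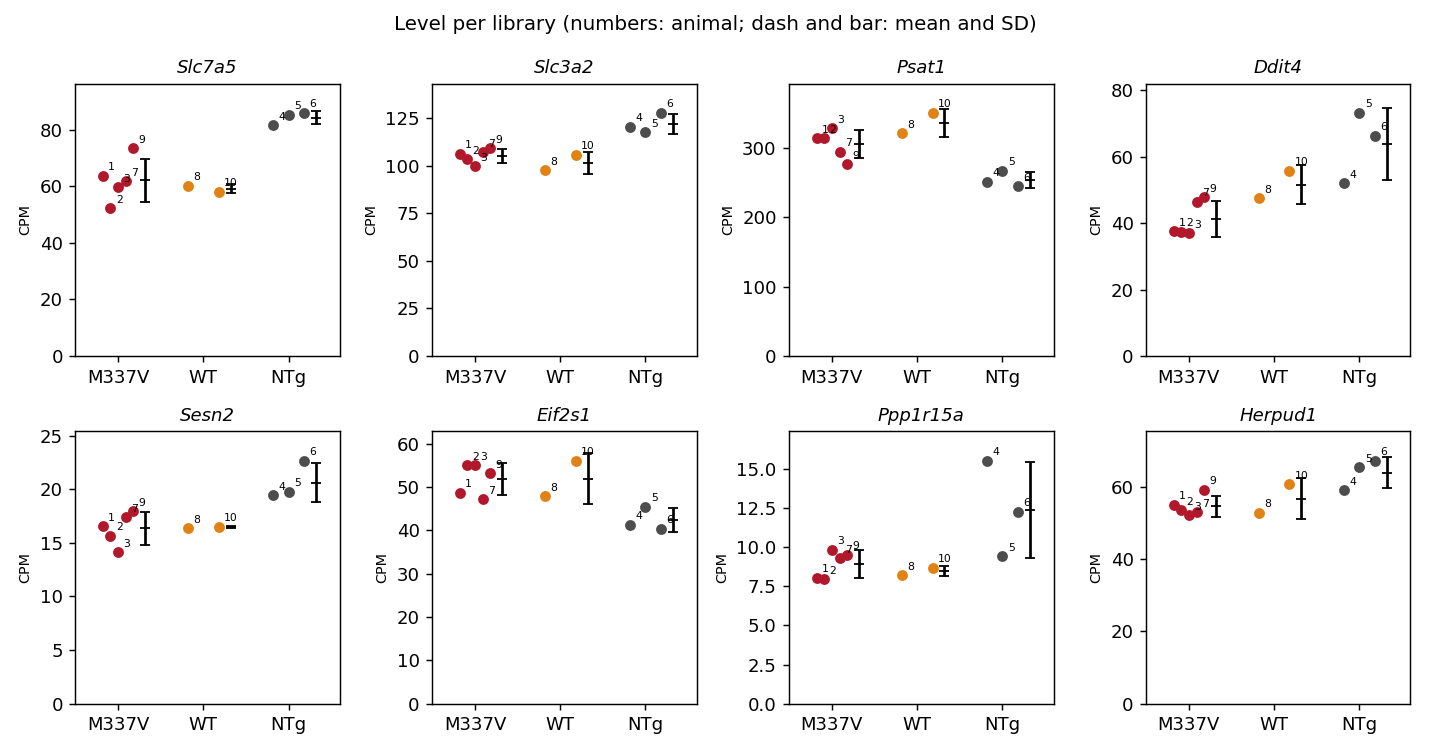
CPM of Slc7a5, Slc3a2, Psat1, Ddit4, Sesn2, Eif2s1, Ppp1r15a and Herpud1 in each library, numbered by animal, with the mean and SD of each group beside the points and axes from 0. The M337V points lie apart from the NTg points for the first 6 genes and overlap them for Ppp1r15a and Herpud1.

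Among the sensors, 0 of 6 passed, and their median log2 difference between M337V and NTg was -0.12. Eif2ak2, which encodes the kinase PKR that binds double-stranded RNA, had 16.4, 16.7, 21.1, 20.7 and 18.7 CPM in M337V 1, 2, 3, 7 and 9. It had 23.6 and 21.6 CPM in NTg 5 and 6 and 22.5 CPM in the library labelled NTg 4. The M337V values lay below the NTg values, but the log2 difference of -0.27 ± 0.09 did not pass (adjusted p = 0.0979). Eif2ak1, the haem-regulated kinase HRI, averaged 90.6 ± 9.07 CPM in M337V and 98.4 ± 5.20 CPM in NTg. Eif2ak4, the kinase GCN2 that senses uncharged tRNA, averaged 31.3 ± 1.81 CPM in M337V and 33.9 ± 0.73 CPM in NTg. Eif2ak3, PERK, had 34.1 to 40.1 CPM in M337V and 33.1 to 36.6 CPM in NTg. Ern1, which encodes IRE1, averaged 18.3 ± 1.89 CPM in M337V and 20.4 ± 1.11 CPM in NTg. Atf6 averaged 60.3 ± 2.79 CPM in M337V and 58.8 ± 2.70 CPM in NTg. For these 5 sensors the smallest adjusted p was 0.268, that of Eif2ak4.

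Of the genes around eIF2 itself, 0 of 3 passed. Eif2s1 encodes the alpha subunit that the kinases phosphorylate. It had 48.7, 55.0, 55.0, 47.2 and 53.2 CPM in M337V 1, 2, 3, 7 and 9, 45.4 and 40.4 CPM in NTg 5 and 6, and 41.3 CPM in the library labelled NTg 4. The groups did not overlap, with M337V higher, and the log2 difference of 0.29 ± 0.08 lay just outside the threshold (adjusted p = 0.0520). Ppp1r15a encodes GADD34, the stress-induced subunit that directs a phosphatase to eIF2. It had 7.94 to 9.82 CPM in M337V (median 9.30) and 15.5, 9.41 and 12.2 CPM in NTg, the first of these in the library labelled NTg 4. These ranges overlapped (log2 -0.47 ± 0.14, adjusted p = 0.0742). With single libraries left out the difference of Ppp1r15a ran from -0.64 to -0.27, and adjusted p was highest, 0.277, without the library labelled NTg 4. Ppp1r15b, the subunit present without stress, averaged 87.9 ± 6.06 CPM in M337V and 93.3 ± 2.31 CPM in NTg (adjusted p = 0.393).

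None of the 5 transcription factors passed. Atf4 mRNA averaged 99.4 ± 4.63 CPM in M337V and 107 ± 8.07 CPM in NTg (log2 -0.10 ± 0.07, adjusted p = 0.394). Ddit3, the factor CHOP that is tied to cell death under lasting stress, averaged 12.1 ± 0.77 CPM in M337V and 11.6 ± 1.18 CPM in NTg. Its log2 difference was 0.06 ± 0.10, with an interval of 2 SE from -0.13 to 0.26. Xbp1, summed over spliced and unspliced forms, averaged 53.7 ± 7.41 CPM in M337V and 55.7 ± 5.06 CPM in NTg (adjusted p = 0.818). Atf5 averaged 29.1 ± 2.59 CPM in M337V and 26.3 ± 1.56 CPM in NTg (adjusted p = 0.282). Cebpb, a partner of ATF4 and also a factor of myeloid cells, had 3.22 to 5.58 CPM in M337V and 4.58 to 6.66 CPM in NTg (adjusted p = 0.199).

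The induced regulators besides Ddit4 did not pass. Sesn2, which encodes a leucine sensor that restrains mTORC1, had 16.6, 15.7, 14.1, 17.4 and 17.9 CPM in M337V 1, 2, 3, 7 and 9 and 19.8 and 22.7 CPM in NTg 5 and 6, with 19.4 CPM in the library labelled NTg 4. Its groups did not overlap, with M337V lower, and it lay just outside the threshold (log2 -0.34 ± 0.09, adjusted p = 0.0510). Chac1, an enzyme that breaks down glutathione, averaged 6.61 ± 1.32 CPM in M337V and 6.97 ± 0.32 CPM in NTg. Trib3, a pseudokinase that restrains ATF4, averaged 0.52 ± 0.16 CPM in M337V and 0.42 ± 0.23 CPM in NTg, and its log2 difference at these few counts was 0.31 ± 0.42. Of the 36 members, 2 lay wholly above NTg (Psat1 and Eif2s1) and 4 wholly below it (Slc7a5, Ddit4, Sesn2 and Eif2ak2). Ranges that did not overlap were found for 16.7% of the members and for 18.1% of all genes tested, 9.51% higher and 8.61% lower.

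Asns, asparagine synthetase and a standard readout of ATF4, averaged 99.2 ± 7.61 CPM in M337V and 101 ± 4.96 CPM in NTg. Its log2 difference was -0.03 ± 0.08, with an interval from -0.18 to 0.12. Slc7a11, the cystine carrier that feeds glutathione synthesis, varied widely within groups. It had 24.4 to 44.3 CPM in M337V, 22.2 and 36.7 CPM in WT and 35.3 to 39.7 CPM in NTg, and its biological variation was 17.7%. The 5 members with the ATF4 motif in their windows, Asns, Chac1, Herpud1, Slc7a11 and Trib3, included 0 calls and had log2 differences from -0.23 (Herpud1) to 0.31 (Trib3).

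**Figure D3:**
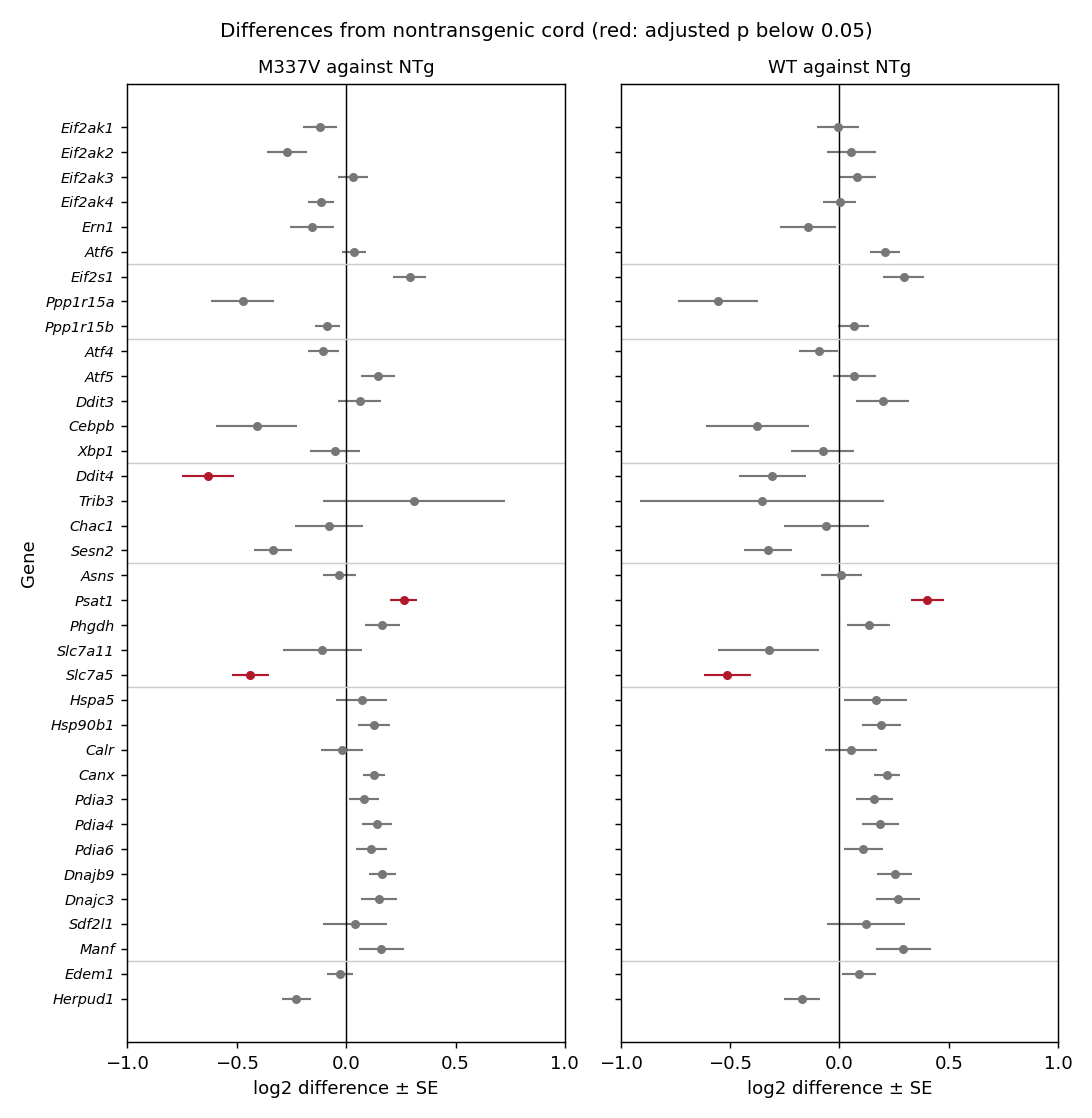
log2 difference from NTg with its standard error for each of the 36 genes, grouped by role, in M337V (left) and WT (right), with adjusted p below 0.05 in red. Ddit4, Slc7a5 and Psat1 are red on the left and Slc7a5 and Psat1 on the right, and the ER folding genes lie near or right of 0 in both.

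The 11 ER folding genes showed small differences from NTg, of which 0 passed. Their log2 differences between M337V and NTg were positive in 10 of 11, with a median of 0.13. Over all 15191 genes tested, 7166 were positive. Of 16 other ER chaperone and folding genes in the wider pathway list, 7 were positive and 9 negative, with a median of -0.05. Among the 11, the largest difference was that of Dnajb9 (0.17 ± 0.06, adjusted p = 0.135), a co-chaperone of BiP. It averaged 68.2 ± 4.66 CPM in M337V and 60.8 ± 2.68 CPM in NTg. Canx averaged 782 ± 26.5 CPM in M337V and 716 ± 27.0 CPM in NTg (0.13 ± 0.05, adjusted p = 0.135). Dnajc3, a co-chaperone that also inhibits PERK, averaged 115 ± 8.25 CPM in M337V and 103 ± 5.52 CPM in NTg. Pdia4 averaged 58.4 ± 5.13, Pdia3 214 ± 15.6 and Pdia6 90.8 ± 7.35 CPM in M337V, against 52.9 ± 0.90, 202 ± 15.7 and 83.8 ± 4.45 CPM in NTg. Manf, a secreted ER factor with neurotrophic action, averaged 39.3 ± 3.14 CPM in M337V and 35.1 ± 3.54 CPM in NTg. Sdf2l1 averaged 9.71 ± 1.48 CPM in M337V and 9.44 ± 1.72 CPM in NTg. The 6 genes with the ER stress element had log2 differences from -0.02 (Calr) to 0.15 (Dnajc3).

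Some folding genes varied between animals of 1 group. Hspa5, the main sentinel of the unfolded protein response, had 229, 279, 245, 260 and 329 CPM in M337V 1, 2, 3, 7 and 9, 246 and 326 CPM in WT 8 and 10, and 277 and 253 CPM in NTg 5 and 6, with 235 CPM in the library labelled NTg 4. M337V 1 was the lowest and M337V 9 the highest library of all, so the M337V group spanned the whole range. Its log2 difference between M337V and NTg was 0.07 ± 0.12. Calr had 258, 282, 260, 314 and 356 CPM in M337V 1, 2, 3, 7 and 9, against 294 to 304 CPM in NTg. Hsp90b1 had 380 to 471 CPM in M337V (median 419), 407 and 464 CPM in WT and 362 to 396 CPM in NTg.

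The highest library was M337V 9 for 6 of the 11 folding genes, WT 10 for 4 and NTg 5 for 1, and the lowest was NTg 6 for 7 and M337V 1 for 3. Averaged over the 11 genes, the centred log2 level was -0.14, 0.09, -0.03, 0.01 and 0.15 in M337V 1, 2, 3, 7 and 9, 0.00 and 0.19 in WT 8 and 10, and -0.12, -0.01 and -0.13 in NTg 4, 5 and 6. Among transcription factors Xbp1 was also highest in M337V 9, with 65.2 CPM against 47.7 CPM in M337V 1. Of the degradation genes, Herpud1, which recruits the ER ubiquitin ligase machinery, averaged 54.6 ± 2.79 CPM in M337V and 63.9 ± 4.31 CPM in NTg. It did not pass (log2 -0.23 ± 0.07, adjusted p = 0.0671). Edem1, which directs misfolded glycoproteins to degradation, averaged 43.1 ± 2.37 CPM in M337V and 44.0 ± 1.11 CPM in NTg.

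**Figure D4:**
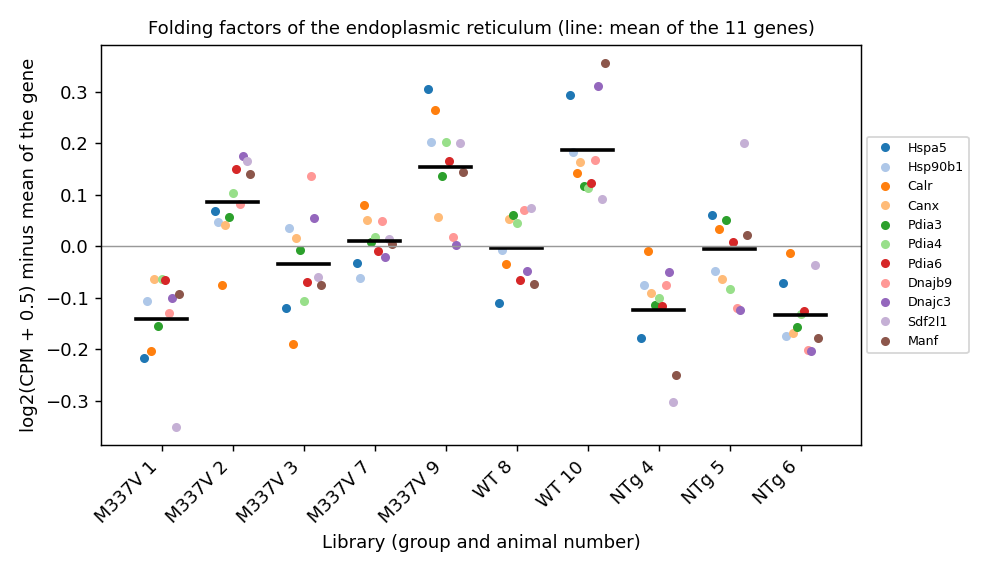
Level on a log2 scale (CPM + 0.5), centred on each gene's mean over the 10 libraries, of 11 ER folding genes (points) and their mean (line) in each library. The mean is highest in WT 10 (0.19) and M337V 9 (0.15) and lowest in M337V 1 (-0.14).

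The comparison of WT with NTg addressed the human gene without the mutation. It shared its NTg libraries with the comparison above, so the differences of both from NTg are not independent. Slc7a5 fell to 59.1 ± 1.49 CPM over the 2 WT libraries, against 84.3 ± 2.32 CPM over the 3 NTg libraries (log2 -0.51 ± 0.11, adjusted p = 0.0252). Psat1 rose to 336 ± 20.5 CPM in WT, against 255 ± 11.5 CPM in NTg (log2 0.40 ± 0.08, adjusted p = 0.0183). These 2 calls were 5.56% of the members, beside 5.64% of all genes tested, 3.59% higher and 2.05% lower. Ddit4 averaged 51.6 ± 5.92 CPM in WT and 63.9 ± 10.8 CPM in NTg and did not pass (log2 -0.31 ± 0.15, adjusted p = 0.234). The members' median log2 difference was 0.07, against -0.02 over all genes tested.

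Just outside the threshold lay Canx at 832 ± 44.9 CPM in WT and 716 ± 27.0 CPM in NTg (log2 0.22 ± 0.06, adjusted p = 0.0569). Dnajb9 followed (0.25 ± 0.08, adjusted p = 0.0758), then Eif2s1 (0.29 ± 0.09, adjusted p = 0.0785) and Atf6, with 69.4 and 66.5 CPM in WT and 55.8 to 61.1 CPM in NTg (0.21 ± 0.07, adjusted p = 0.0837). The log2 differences of all 11 ER folding genes were positive, with a median of 0.19, and 0 passed. Over all 15191 genes tested, 7091 were positive. Of the 16 other ER chaperone and folding genes, 7 were positive and 9 negative, with a median of -0.02. Of the 36 members, 9 lay wholly above and 3 wholly below NTg, 33.3% together, beside 41.7% of all genes tested (19.6% higher and 22.1% lower). Without the library labelled NTg 4, Psat1 passed (0.40, adjusted p = 0.0481) and Slc7a5 did not (-0.53, adjusted p = 0.0546). No member passed without NTg 6, where Psat1 differed by 0.37 and Slc7a5 by -0.50. Over all genes tested, calls numbered 283 without the library labelled NTg 4 and 44 without NTg 6, against 857 in the reported fit. Fits with a single WT library left are given here as log2 differences only. Psat1 and Slc7a5 differed by 0.34 and -0.49 without WT 10 and by 0.46 and -0.54 without WT 8. Without both WT 8 and the library labelled NTg 4 they differed by 0.46 and -0.55.

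The comparison of M337V with WT addressed the mutation itself, with the construct in both groups. By edgeR 0 of 36 members passed (smallest adjusted p 0.633), as did 0% of all 15191 genes tested. DESeq2 and limma-voom also called 0 members, and over all genes DESeq2 called 29 and limma-voom 0. At an unadjusted p below 0.05 there were 4 members, all lower in M337V: Eif2ak2, Atf6, Ddit4 and Ppp1r15b. They were 11.1% of the members, beside 6.66% of all genes tested. The members' median log2 difference was -0.06, with 8 positive and 28 negative, and over all genes tested 7564 were negative. Of the 11 ER folding genes 10 were negative, with a median of -0.08, as were 6 of 6 sensors, with a median of -0.11. Eif2ak2 averaged 18.7 ± 2.17 CPM in M337V and 23.4 ± 1.17 CPM in WT, a log2 difference of -0.32 with an interval of 2 SE from -0.53 to -0.12. Atf6 averaged 60.3 ± 2.79 CPM in M337V and 67.9 ± 2.04 CPM in WT (-0.17, from -0.30 to -0.05). These were the 2 members whose M337V and WT values did not overlap, 5.56% of the list, beside 9.5% of all genes tested (4.85% higher and 4.65% lower). Slc7a5 differed by 0.07 (from -0.13 to 0.27), Psat1 by -0.14 (from -0.28 to 0.00) and Ddit4 by -0.32 (from -0.60 to -0.05). For 32 of 36 members the interval lay within 0.5 log2 units of 0 on both sides.

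Other genes of the same pathways were taken from a list of 81, of which 79 were tested and Fgf21 and Gdf15, both with levels near 0, were not. Between M337V and NTg 0 rose and 3 fell (3.8%, beside 4.29% of all genes tested), with a median log2 difference of -0.03. They were Slc3a2, given above, Slc1a5 and Syvn1. Slc1a5, a carrier of glutamine and other neutral amino acids, had 4.09 to 6.08 CPM in M337V and 6.52 to 9.01 CPM in NTg (log2 -0.59 ± 0.15, adjusted p = 0.0449). Syvn1, the ubiquitin ligase HRD1 of ER-associated degradation, had 34.7 to 37.7 CPM in M337V and 42.3 to 47.1 CPM in NTg (-0.28 ± 0.07, adjusted p = 0.0422). Without the library labelled NTg 4, 0 of the 79 genes fell and 1 rose, so none of these 3 calls held, and without NTg 6 there were 0 calls. Over all genes tested, calls then numbered 197 and 2, against 651 in the reported fit. Of 12 tRNA synthetase genes, known ATF4 targets, 0 passed and 11 had negative differences, with a median of -0.08. Over all 15191 genes tested, 8025 were negative. Between WT and NTg 0 of these 12 passed, with 5 positive, 7 negative and a median of -0.03. Of 8 genes for other subunits of eIF2 and its exchange factor eIF2B, 0 passed.

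Between WT and NTg 3 of the 79 rose and 2 fell (6.33%, beside 5.64% of all genes tested). Slc1a5 fell by 0.93 on the log2 scale (SE 0.19, adjusted p = 0.0229), with 4.24 and 3.95 CPM in WT and 6.52 to 9.01 CPM in NTg. Slc3a2 fell by 0.26 (SE 0.06, adjusted p = 0.0344). Those that rose were Vldlr, a lipoprotein receptor gene known as an ATF4 target (0.30 ± 0.06, adjusted p = 0.0237), Edem3, a mannosidase of ER-associated degradation (0.28 ± 0.06, adjusted p = 0.0306), and Aldh1l2, a mitochondrial folate enzyme (0.56 ± 0.15, adjusted p = 0.0465). Aldh1l2 had 31.6 CPM in WT 8 and 20.6 CPM in WT 10, against 16.3 to 19.1 CPM in NTg. Like Vldlr, it was listed among the ATF4 targets, as were Slc1a5 and Slc3a2, which fell. Without the library labelled NTg 4, 1 of the 79 rose and 0 fell in WT, and without NTg 6 there were 0 calls. Over all genes tested, calls then numbered 283 and 44, against 857 in the reported fit. Between M337V and WT 0 of the 79 passed, and the smallest p-values were those of Vldlr (log2 -0.19, adjusted p = 0.625) and Edem3 (-0.17, adjusted p = 0.683). Skeletal muscle markers summed to 17.9 to 107 CPM in M337V, 329.5 and 11.6 CPM in WT 8 and 10, and 101 to 638 CPM in NTg, and endothelial markers to 132 to 189 CPM in M337V, 122 to 167 in WT and 153 to 167 in NTg. Slc7a5 and Slc3a2 are known for high levels in brain endothelium. Of the 4 endothelial markers 0 passed in either comparison with NTg. All 4 log2 differences were negative in both, but some lay near 0. Cldn5 differed by -0.01 ± 0.14 in M337V, and Flt1 by -0.05 ± 0.17 in M337V and -0.002 ± 0.22 in WT. Pecam1 differed by -0.27 in M337V (adjusted p = 0.167) and by -0.38 in WT (adjusted p = 0.126). Pecam1 and Cldn5 lay wholly below NTg in WT, as did 22.1% of all genes tested. The part of endothelial levels in the differences of the transporters was not tested.

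**Figure D5:**
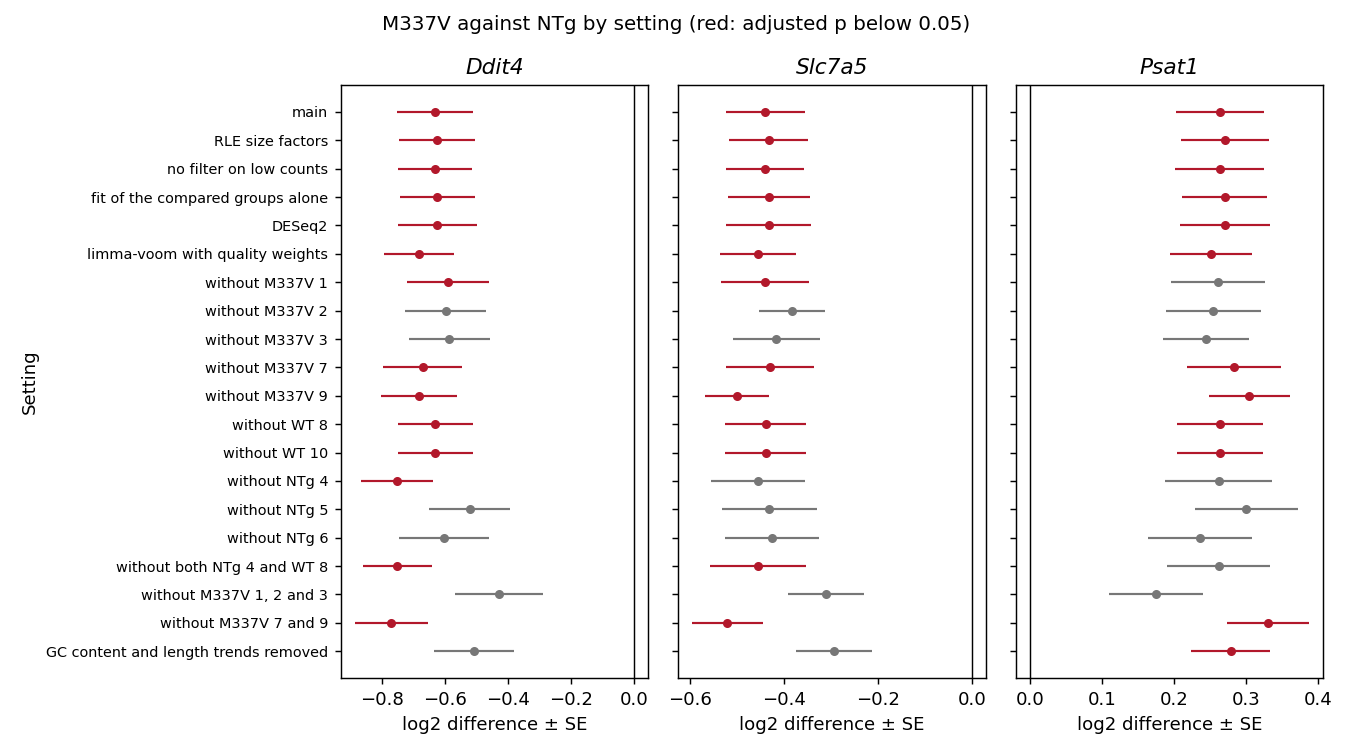
log2 difference between M337V and NTg with its standard error for Ddit4, Slc7a5 and Psat1 (panels) in the reported fit (top) and 19 alternatives, with adjusted p below 0.05 in red. Each gene keeps 1 sign throughout, which leaving out libraries could hardly change because its M337V and NTg values do not overlap. All 3 are grey without NTg 5, without NTg 6, without M337V 2, without M337V 3 and without M337V 1, 2 and 3.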

How the data were processed

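The authors deposited a table of raw counts, whole numbers for each gene in each library with unequal totals. Per the labels, stranded TruSeq libraries were sequenced as read pairs. The submitters' processing notes list, without their roles, STAR 2.4.2a, Subread 1.4.6 with featureCounts, Trimmomatic 0.32, Salmon 0.8.2 and DESeq2 1.14.1 among other tools, and the genome build is not given in the sources used here. Names and positions came from GENCODE (GRCm38), which named 21774 of 22024 identifiers, and columns were matched to samples by library name.

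Counts were analysed with edgeR 4.0.16 in R 4.3.3: filterByExpr (minimum count 10, minimum total 15), TMM scaling, and the quasi-likelihood test with 1 mean for each group, fitted to the 10 libraries together. The SE is the absolute log2 difference over the square root of F. P-values were adjusted over all 15191 genes at 0.05. Levels are TMM-scaled CPM. Alternatives used limma 3.58.1 and DESeq2 1.42.0, other scaling and filters, libraries left out, and offsets that removed spline trends over GC content and length. The fit was tested on simulated data. No 2 libraries agreed within sampling noise (lowest chi-square per degree of freedom 4.87). The members and lists were chosen with earlier results of these data known. All members are described, those past the threshold and some others by library and the rest by a group mean or range. Of the other pathway genes up to 3 called genes per direction are named. Protein ends, also planned, were not analysed here.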

Additional observations from a re-analysis of the deposited data

How the results depend on the processing

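The number of members past the threshold depended on single libraries and on the tool. Ddit4, Slc7a5 and Psat1 kept their sign against NTg in all 19 alternatives of each comparison in which they passed. Their values did not overlap those of NTg there, so leaving out libraries could hardly reverse a sign. The other alternatives used the same 10 libraries, so the kept signs are no separate support. For M337V against NTg, with 3 members called, the count was 8 with DESeq2, 7 with limma-voom, 5 without M337V 7 and 9, 1 once trends over GC content and length were removed, 0 without M337V 1, 2 and 3, and 0 to 6 with each library left out in turn. For WT against NTg, with 2 called, it was 6 with DESeq2, 1 with limma-voom, 1 once these trends were removed, 0 without both the library labelled NTg 4 and WT 8, and 0 to 3 with each library left out. The cause of these changes in count was not tested. For M337V against WT it was 0 throughout. Over all genes tested, M337V against NTg had 651 calls in the reported fit, 1500 with DESeq2 and 1315 with limma-voom. It had 1146 without M337V 7 and 9, 368 once the trends were removed and 3 without M337V 1, 2 and 3. WT against NTg had 857 calls in the reported fit, 1724 with DESeq2, 215 with limma-voom and 780 once the trends were removed. A fit that left out a WT library assumed that the other varied like the other groups. No paired analysis was made, because each animal has its own number and the sample labels used here give no litter.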
